A study of Mus musculus with 8 samples.

Results

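The interaction of retinoic acid (RA) and nutrient restriction was examined in mouse spermatogonial cultures as a 2 by 2 design, for which all 8 of the 8 libraries of the series were used, with 2 libraries in each of 4 conditions. Primary cultures of spermatogonia, taken from 6-day-old pups of a C57BL/6 and DBA/2 cross and kept on feeder layers of irradiated mouse embryonic fibroblasts with GDNF, were treated for 2 days, and poly(A) RNA was sequenced. Veh cells stayed in complete spermatogonial medium, and RA cells received this medium with 100 nM RA. NR cells received a mixture of 10% complete medium and 90% Earle's Balanced Salt Solution (EBSS), and NRRA cells received that mixture with 100 nM RA. By the paper's recipe the complete medium holds GDNF, FGF2 and serum, so the mixture diluted these along with the nutrients. Their separate effects were not tested, and restriction below means the whole mixture. Total counts lay between 19261333 and 30023585 per library. The paper describes the 2 libraries of a condition as independent biological replicates. The p-values and standard errors (SE) below rest on the small spread between the 2 libraries of each condition. Whether that spread covers the spread between separately derived cultures was not tested. The cultures hold feeder cells beside germ cells. Fewer cells of a type and less RNA per cell therefore cannot be told apart in these bulk libraries.

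RA enters cells, is bound by carriers such as CRABP2, and activates nuclear receptors that switch on target genes, among them *Stra8*, the gatekeeper of meiotic entry, and the CYP26 enzymes that degrade RA. Undifferentiated spermatogonia are held in self-renewal by GDNF, which signals through GFRA1 and RET and maintains factors such as *Etv5*, while differentiating spermatogonia turn on *Kit*. When 2 treatments act independently on a logarithmic scale, the level under both together is the product of their separate fold changes, so that the expected NRRA level is RA times NR divided by Veh. The interaction is the log2 ratio of the observed NRRA level to that product. A positive value places a gene above the product and a negative value below it. The same number is the difference between the effect of RA under restriction and its effect in complete medium.

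Of 20477 genes tested, 161 lay above the product by at least 2-fold (0.786%) and 298 lay below it (1.46%) at an adjusted p under 0.05 (edgeR's quasi-likelihood test with Benjamini-Hochberg adjustment). Without a fold minimum, 1304 genes were above (6.37%) and 1348 below (6.58%). Most genes were near the product, with a median absolute interaction of 0.199 and 79.1% of the genes within 0.5 on the log2 scale. The genes next to the 2-fold limit were *Limch1* (1.00) inside and *Fbxo2* (0.99) outside above the product, and *Alpl* (-1.01) inside and *Gm26679* (-0.99) outside below it. Of the 459 genes past 2-fold (2.24%), 197 had a mean of at least 100 counts, 77 above and 120 below. DESeq2 called 101 genes above and 180 below at 2-fold.

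**Figure D1:**
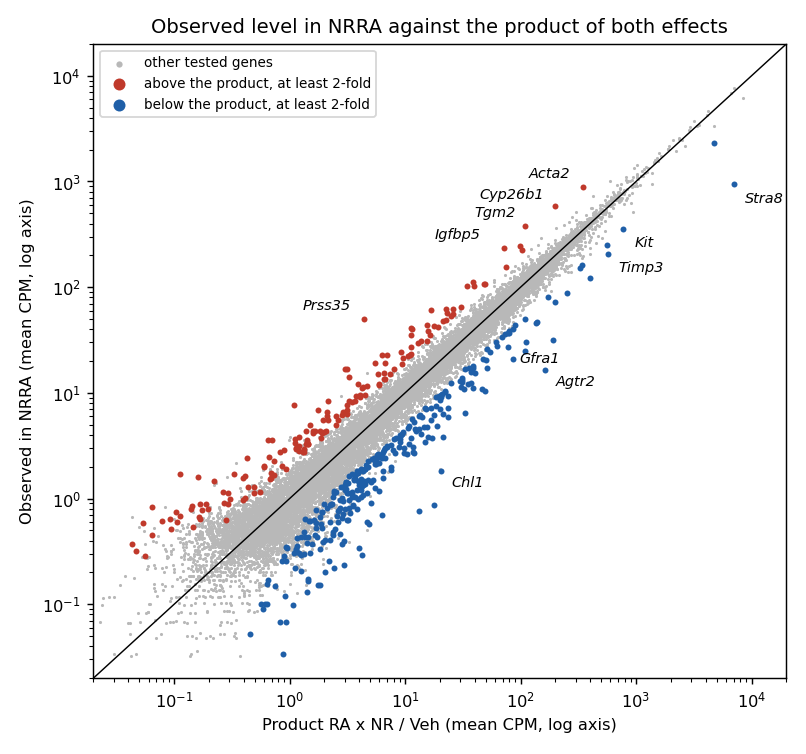
Observed mean CPM in NRRA (vertical axis) against the product of the RA and NR effects on the Veh level (horizontal axis), both logarithmic, 1 point per gene; genes at 0 in Veh or on either axis are not drawn. Of the genes past 2-fold, *Stra8* lies furthest right, at a product of 6995 CPM and an observed 937.4 CPM, below the line of equality, while *Prss35*, *Tgm2* and *Acta2* lie above it.

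The genes above and below the product were selected by their NRRA level against the product. Where that level stood among the 4 conditions therefore follows in part from the selection, and the shares over all tested genes were not counted. Among the 161 genes above, the NRRA mean was the highest of the 4 conditions in 99 and the lowest in 4. Among the 298 below, it was the lowest in 154 and the highest in 19. Of the 161 genes above, 152 were also above the sum of the separate changes in CPM. That count is partly fixed by arithmetic. Where both treatments alone move a gene in the same direction, the product itself exceeds the sum. Some sums are negative, such as that of *Igfbp5* (-18.84 CPM), and any level exceeds a negative sum. Of the 298 genes below the product, 23 were above the sum, and *Stra8* and *Kit* were among them. So were *Dusp6*, *Hoxc11* and *Hoxc12*, whose sums were negative.

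The effect of RA itself divides these genes into kinds. In complete medium RA raised 19.8% and lowered 23.4% of the tested genes, under restriction it raised 21.3% and lowered 22.1%, and restriction alone raised 21.7% and lowered 22.2%, each at an adjusted p under 0.05 (edgeR). Of the genes above the product, 62 were not called for RA in complete medium and rose with RA under restriction, 33 rose in both media, 29 fell in complete medium and rose under restriction, and 27 fell in complete medium and were not called under restriction. A further 7 fell in both media and 3 were called in neither. Of the genes below, 92 were not called in complete medium and fell under restriction, 73 fell in both media, 66 rose in complete medium and were not called under restriction, and 40 rose in complete medium and fell under restriction. The remaining 23 rose in both media and 4 were called in neither. The 29 and the 40 are the genes in which the direction of the RA effect turned with the medium.

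**Figure D2:**
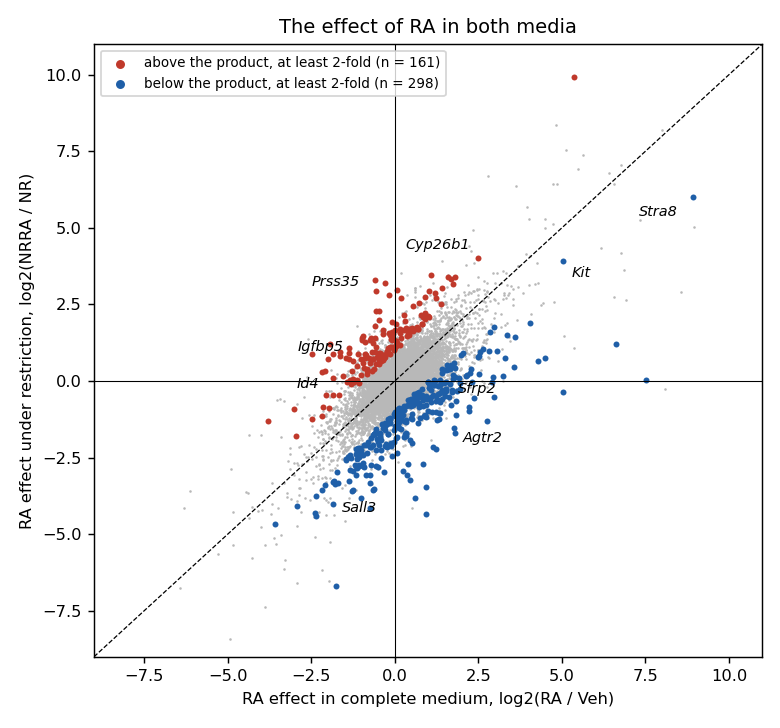
Log2 fold change of RA in complete medium (horizontal axis) and under nutrient restriction (vertical axis), 1 point per tested gene, with the genes past 2-fold for the interaction in colour and the dashed line marking equal effects. *Agtr2* and *Sfrp2* lie in the lower right, *Prss35* and *Igfbp5* in the upper left, and *Stra8* at 8.92 and 6.02.

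RA targets were found on both sides of the product. The sequences just before the start of 2 of them that moved in opposite directions, *Stra8* and *Cyp26b1*, are shown with the letters AGGTCA in capitals, the half-site bound by RA receptors, searched on both strands. They cover 250 bases before 1 transcript start in RefSeq (GRCm38.p6), 5′ to 3′ on the gene's strand. A gene can have other starts further upstream, and by the gene coordinates given here the *Stra8* window lies inside the gene and the *Cyp26b1* window overlaps its 5′ end.
Stra8, chr6:34920698-34920947, + strand: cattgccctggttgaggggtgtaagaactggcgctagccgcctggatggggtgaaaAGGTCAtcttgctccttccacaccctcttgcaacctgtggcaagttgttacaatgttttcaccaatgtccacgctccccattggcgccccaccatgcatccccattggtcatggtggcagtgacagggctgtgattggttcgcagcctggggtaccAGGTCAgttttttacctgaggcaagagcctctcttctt
Cyp26b1, chr6:84593811-84594060, - strand: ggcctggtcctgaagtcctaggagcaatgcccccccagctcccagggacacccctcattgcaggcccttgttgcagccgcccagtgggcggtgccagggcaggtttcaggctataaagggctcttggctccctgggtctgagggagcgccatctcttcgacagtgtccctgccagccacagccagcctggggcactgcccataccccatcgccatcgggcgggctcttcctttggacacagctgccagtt
The *Stra8* window held 2 copies, beginning at positions -194 and -38 from the start, and the *Cyp26b1* window held none. The letters occur in 14.0% of 32536 such windows and in 3 of the 22 retinoid genes that had a window (13.6%), so the share in the list was near that of all windows.

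*Stra8* (chr6:34920163-34939344, plus strand, GRCm38) lay far below the product. Its levels were 1.14 and 1.51 CPM in the Veh libraries, 631.6 and 653 CPM for RA, 14.6 and 14.3 CPM for NR, and 917.2 and 957.5 CPM for NRRA. NRRA was the highest condition, and the libraries of the conditions did not overlap. The product of the separate effects was 6995 CPM, 7.46 times the observed mean, with an interaction of -2.90 (SE 0.148, adjusted p = 1.76e-13, edgeR's quasi-likelihood test). The sum of the separate changes was 655.4 CPM, and on that additive scale the observed level exceeded it by 282 CPM. *Stra8* therefore lay below the product and above the sum.

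*Kit* (chr5:75574916-75656722, plus strand), the receptor of differentiating spermatogonia, had the same form. It stood at 6.34 and 6.31 CPM in the Veh libraries, 212 and 202.7 CPM for RA, 23.8 and 23.6 CPM for NR, and 359.4 and 356.8 CPM for NRRA. NRRA was again highest, the product was 777.5 CPM, and the interaction was -1.12 (SE 0.100, adjusted p = 7.56e-09, edgeR). The observed level exceeded the sum of 224.7 CPM by 133.4 CPM. *Nrip1*, a corepressor of nuclear receptors, had an interaction of -1.10, with a mean of 93.6 CPM in RA and 80.5 CPM in NRRA.

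Several genes that handle RA lay above the product. *Cyp26b1* (chr6:84571414-84593908, minus strand), which degrades RA, stood at 125.1 and 119.2 CPM in the Veh libraries, 713.3 and 647.5 CPM for RA, 36.8 and 35.0 CPM for NR, and 587.5 and 582.4 CPM for NRRA. Restriction alone lowered it, and with RA added both libraries lay below those of RA and above those of Veh. The observed mean was 2.94 times the product of 199.7 CPM, with an interaction of 1.55 (SE 0.0712, adjusted p = 2.63e-14, edgeR). It was 9.1 CPM below the sum of 594.1 CPM, so its side depends on the scale. *Crabp2*, which carries RA to its receptors, had 25.4 and 24.2 CPM in RA and 60.9 and 63.2 CPM in NRRA against 9.30 and 9.80 CPM in NR, with an interaction of 1.46. *Tgm2* (chr2:158116402-158146436, minus strand), transglutaminase and a classical RA target, rose from 35.6 and 36.8 CPM in NR to 382.6 and 377.2 CPM in NRRA, but from 21.99 and 22.62 CPM in Veh to 72.7 and 61.6 CPM in RA. Its observed mean was 3.49 times the product, and 21.8% of its exon bases overlap *Gm20412*.

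Across the retinoid list, 8 of 30 tested members were above the product, 3 were below and 19 were not called, against 6.37% and 6.58% of all genes, with a median interaction of 0.0812 against 0.0185 for all genes. Their count above the product fell to 3 without RA replicate 2 or NR replicate 2, and to 4 without Veh replicate 1, NR replicate 1 or NRRA replicate 2. *Aldh1a2*, which synthesizes RA, was above the product at 0.58, and was not called without RA replicate 2 (0.49) or NR replicate 2 (0.50). Other strong RA targets were not called. *Cyp26a1* had a mean of 0.456 CPM in Veh and 118.2 CPM in RA, and of 0.291 CPM in NR and 87.8 CPM in NRRA, with an interaction of 0.18 (adjusted p = 0.862, edgeR). *Rarb* went from 0.431 to 41.0 CPM in complete medium and from 0.545 to 48.1 CPM under restriction, with an interaction of -0.11 (adjusted p = 0.910, edgeR). Both genes were picked after their values were seen, to stand beside *Cyp26b1* and *Stra8*.

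**Figure D3:**
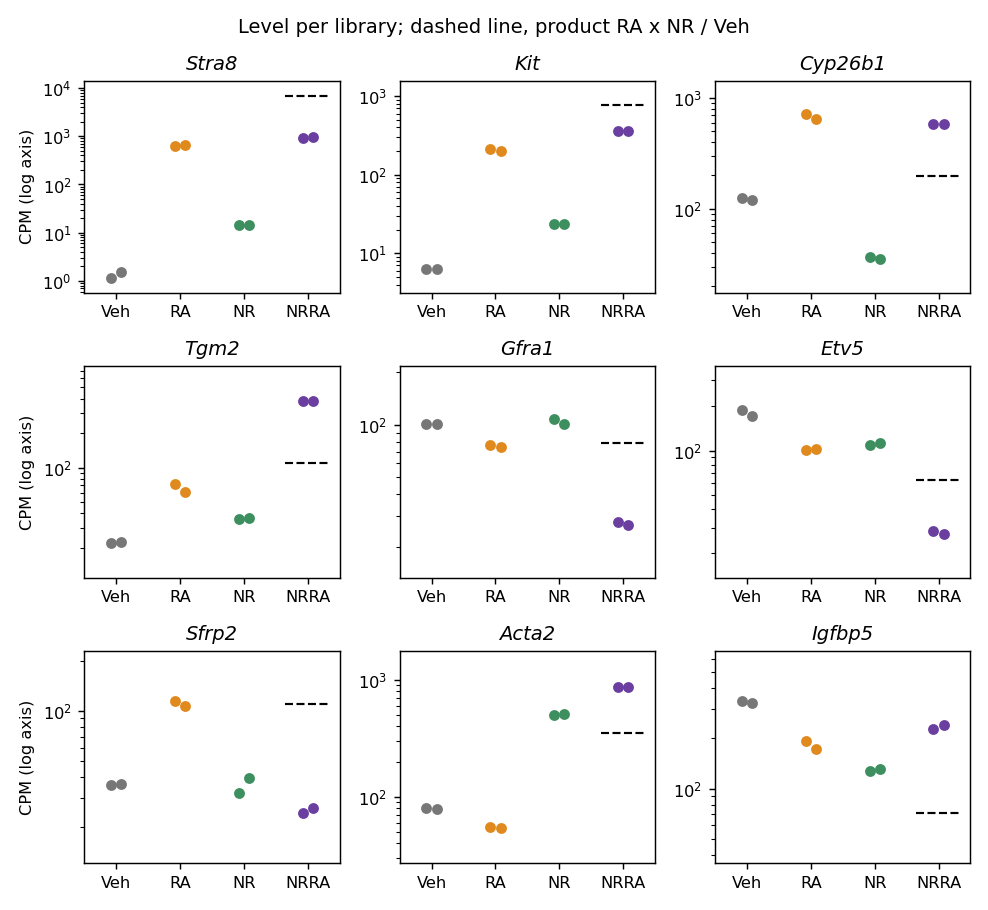
CPM on a logarithmic axis in the 2 libraries of each condition for 9 genes, with the product RA times NR divided by Veh as a dashed line in the NRRA column. The NRRA points lie below the line for *Stra8*, *Kit*, *Gfra1*, *Etv5* and *Sfrp2* and above it for *Cyp26b1*, *Tgm2*, *Acta2* and *Igfbp5*.

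Departures from the product were counted in lists of meiotic genes. The 13 genes that the study describes as responding to both treatments, a list it chose on these samples, had 0 members above and 0 below the product by edgeR (2 members at an unadjusted p under 0.05, and 0 called by DESeq2), with a median interaction of 0.13. Of all genes, 6.37% were above and 6.58% below. In a list of 13 those shares amount to few calls, so 0 is near them. For the transcripts of these genes the study compared levels between treatments, by clustering and qRT-PCR among others, and set none against a product. Its case for a joint effect also rests on gene set scores, on γH2AX and DMC1 staining and on SYCP1 and SYCP3 staining of chromosomes, which were not examined here. A level near the product can still be higher than with either treatment alone. *Dmc1*, the meiotic recombinase, had 7.48 and 8.18 CPM in the Veh libraries, 12.8 and 15.7 CPM for RA, 9.06 and 9.34 CPM for NR, and 19.5 and 20.96 CPM for NRRA. NRRA was highest, and the interaction was 0.25 (SE 0.156, adjusted p = 0.331, edgeR). On the additive scale the NRRA mean of *Dmc1* exceeded the sum of 15.62 CPM by 4.6 CPM. The sums of the other members are not given here. *Mei1*, needed for meiotic breaks, had the highest value of the list (0.52, adjusted p = 0.0905, edgeR), and *Spo11*, which makes the breaks, the lowest (-0.96, SE 0.357, adjusted p = 0.0802, edgeR), at 2.75 and 1.70 CPM in NRRA. Without NRRA replicate 1, *Spo11* had -1.33 and was called (adjusted p = 0.0208, edgeR). Genes at levels such as these had wide errors.

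Among regulators of meiotic entry, 0 of 17 were above and 4 were below the product (23.5%, against 6.58% of all genes). Beside *Stra8* these were *Rec8*, the meiotic cohesin subunit (-0.54), *Mga*, a repressor of germ cell genes (-0.42), and *Ythdc2*, an RNA helicase needed for meiotic entry (-0.42). *Rec8* stood at 78.0 and 77.4 CPM in RA and 76.6 and 76.1 CPM in NRRA, with 8.27 and 6.31 CPM in Veh and 8.34 and 12.2 CPM in NR. Its call was lost in DESeq2 (adjusted p = 0.347) and without any 1 of 6 libraries, and its interaction was -0.25 without NR replicate 2 and -0.40 without Veh replicate 2. That of *Ythdc2* was lost in DESeq2 and without any 1 of 7 libraries, with -0.22 without Veh replicate 1. Of the synaptonemal complex and axis genes, 1 of 16 was above (6.25%, against 6.37% of all genes) and 3 were below (18.8%). *Sycp2* was among those below at -0.72, a call lost in DESeq2 (adjusted p = 0.135) and without RA replicate 2 (-0.37). Of the recombination genes, 1 of 31 was above (3.23%) and 2 were below (6.45%), neither share higher than that of all genes.

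Of 4 transcription factor genes that the study follows under nutrient restriction, *Sohlh1* (-0.18), *Sox3* (0.25) and *Bcl11a* (-0.75) were not called, while without Veh replicate 2 *Sox3* (0.33) and *Bcl11a* (-1.06) were. *Pou2f2*, which had 25.7 and 22.2 CPM in NR and 11.8 and 12.97 CPM in NRRA, was below the product at -0.82 (adjusted p = 0.000430, edgeR). Its levels were 9.56 and 10.4 CPM in Veh and 8.26 and 9.78 CPM in RA, so that RA lowered it under restriction, and its effect in complete medium was not called.

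Self-renewal genes of spermatogonia had more members below the product than above it. Of 29 tested genes, 2 were above (6.9%, against 6.37% of all genes), 14 were below (48.3%, against 6.58%) and 13 were not called, with a median interaction of -0.42, and 6 of those below passed 2-fold. *Gfra1* (chr19:58235604-58455909, minus strand), the GDNF co-receptor, had 100.8 and 101.4 CPM in the Veh libraries, 76.9 and 74.6 CPM for RA, 108.3 and 100.4 CPM for NR, and 27.8 and 26.6 CPM for NRRA. Restriction alone left it near the Veh level, and both NRRA libraries lay far below all others. The product was 78.2 CPM, 2.87 times the observed mean, with an interaction of -1.52 (SE 0.0787, adjusted p = 1.99e-13, edgeR).

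*Etv5*, a transcription factor maintained by GDNF, had 187.7 and 171 CPM in the Veh libraries, 101.1 and 103 CPM for RA, 109.2 and 112.1 CPM for NR, and 28.5 and 27.3 CPM for NRRA. Each treatment alone lowered it, and the combination lay below the product of 63.0 CPM (interaction -1.18). *Dusp6*, a phosphatase of ERK that is induced by ERK signalling, had means of 273.6, 138.7, 79.4 and 15.3 CPM in Veh, RA, NR and NRRA, with an interaction of -1.39. *Spry4*, a feedback inhibitor of receptor signalling, followed with -0.90. The sums of the separate changes of *Dusp6* and *Spry4* were below 0, at -55.5 and -21.6 CPM.

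*Egr4* (-1.59) and *Mycn* (-0.99), transcription factors, were also below. *Lin28a*, *Zbtb16* and *Ret*, picked after their values were seen as further members of known function, had -0.63, -0.42 and -0.41. *Id4*, a marker of stem spermatogonia and a target of BMP signalling, moved the other way. It had 14.7 and 13.9 CPM in the Veh libraries, 4.23 and 3.78 CPM for RA, 19.5 and 22.2 CPM for NR, and 14.6 and 15.8 CPM for NRRA. RA lowered it in both media, by less under restriction, with an interaction of 1.39 (SE 0.154, adjusted p = 2.82e-07, edgeR).

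The 8 markers of undifferentiated spermatogonia are all members of this list, so their sum restates these genes. It was 863 to 928.5 CPM in Veh, 326.4 to 332.6 in RA, 760.8 to 777.8 in NR and 154.9 to 155.8 in NRRA. For 7 general germ cell markers the sum was 807.8 to 827.6, 922.9 to 980.2, 930.5 to 960 and 1052 to 1072 CPM in the same order. *Dazl* carried most of the higher sum in NRRA, with means of 310.9 CPM in Veh and 466.2 CPM in NRRA, while 4 of the 7 markers (*Mael*, *Dnd1*, *Tex101* and *Dppa3*) had lower means in NRRA than in Veh. Sertoli markers, with *Amh* untested, summed to 35.8 to 38.5 CPM in Veh, 24.6 to 25.04 in RA, 42.2 to 45.2 in NR and 12.04 to 13.4 in NRRA. Of the 4 tested, 2 were below the product, *Sox9* (-1.22) and *Wt1* (-1.56), against 6.58% of all genes, with a median of -1.13. *Sox9* made up most of the Sertoli sum. *Wt1* did not follow it, with means of 4.56 CPM in Veh, 8.96 in RA and 4.50 in NRRA. *Gata4* (-1.04) and *Cldn11* (1.03) were not called, at means of 0.529 and 0.176 CPM in Veh. Macrophage markers summed to 89.1 to 131.3 CPM and endothelial markers to 6.29 to 14.3 CPM. Of the Leydig markers *Star* alone was tested, at 5.13 to 13.7 CPM, and it was below the product at -0.73, a call lost without RA replicate 2 (adjusted p = 0.0703, edgeR) or NR replicate 1 (0.0571). Their part in the result was not tested.

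Differentiation factors were divided. Of 19, 4 were above (21.1%, against 6.37% of all genes) and 6 below the product (31.6%, against 6.58%). *Sohlh2* (0.54), a transcription factor of early differentiation, and *Dnmt3b* (0.54), a DNA methyltransferase, were above, and *Dmrtb1* (-1.80) and *Sall1* (-1.23) were below beside *Kit*. *Sohlh2* had 88.6 and 90.3 CPM in NR and 148.8 and 155.3 CPM in NRRA, against 138.6 and 133.2 CPM in Veh and 161.5 and 155.5 CPM in RA. Restriction lowered it, and with RA added both libraries were above those of Veh.

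*Sall3*, a transcription factor of the Sall family, was among the 12 genes furthest below the product. Its means in Veh, RA, NR and NRRA were 89.8, 24.9, 61.5 and 3.78 CPM, with an interaction of -2.18.

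Immediate early genes, which respond within minutes to growth factors, also had more members below than above. Of 29, 3 were above (10.3%) and 9 below (31.0%), with a median of -0.20, against the same 6.37% and 6.58% of all genes. *Egr1* had 161.6 and 152.1 CPM in the Veh libraries, 126.6 and 120.6 CPM for RA, 96.6 and 104.4 CPM for NR, and 37.4 and 36.3 CPM for NRRA, with an interaction of -1.11 (SE 0.0764, adjusted p = 6.09e-11, edgeR). NRRA was the lowest condition. *Egr3* fell further, from 24.4 CPM in Veh, 18.4 in RA and 7.31 in NR to 1.27 in NRRA on average, with an interaction of -2.11. *Egr4* stands in this list as well. *Ier3* (-0.96), *Dusp5* (-0.96), an ERK phosphatase, and *Junb* (-0.79), an AP-1 subunit, were below. For *Junb* RA raised the mean from 160.1 to 179.4 CPM in complete medium, a difference of 0.16 on the log2 scale, and lowered it from 117.4 to 75.8 CPM under restriction.

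*Acta2*, smooth muscle actin, was the contractile gene furthest above the product. It had 80.6 and 79.5 CPM in the Veh libraries, 55.4 and 54.6 CPM for RA, 505.8 and 512.4 CPM for NR, and 878.6 and 878.1 CPM for NRRA. RA lowered *Acta2* in complete medium and raised it under restriction, to 2.51 times the product of 349.6 CPM (interaction 1.33, SE 0.0600, adjusted p = 2.34e-14, edgeR). *Tpm1*, tropomyosin, had means of 385.7, 617.6, 371.4 and 1013 CPM in Veh, RA, NR and NRRA, with an interaction of 0.77. *Myl9*, a myosin light chain, had 0.76 and *Tagln*, an actin binding protein, 0.40, with 67.9% of the exon bases of *Tagln* overlapping another gene.

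Of 17 contractile genes 7 were above (41.2%, against 6.37% of all genes) and 2 below (11.8%, against 6.58%), with a median of 0.21. The 2 below were *Myh9* (-0.20) and *Cald1* (-0.23). Without NR replicate 2 the count above was 4.

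Serum response factor binds CArG boxes in contractile and in immediate early genes. The windows before *Dusp5*, which was below the product, and *Myl9*, which was above it, are shown because both hold a CArG box, in capitals, searched by its name on both strands. By the gene coordinates used here both windows overlap the 5′ end of their gene.
Dusp5, chr19:53528895-53529144, + strand: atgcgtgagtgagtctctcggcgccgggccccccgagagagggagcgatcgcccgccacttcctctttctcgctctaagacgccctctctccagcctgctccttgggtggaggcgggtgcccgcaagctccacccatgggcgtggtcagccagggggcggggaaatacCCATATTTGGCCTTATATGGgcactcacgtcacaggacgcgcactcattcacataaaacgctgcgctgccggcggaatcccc
Myl9, chr2:156775214-156775463, + strand: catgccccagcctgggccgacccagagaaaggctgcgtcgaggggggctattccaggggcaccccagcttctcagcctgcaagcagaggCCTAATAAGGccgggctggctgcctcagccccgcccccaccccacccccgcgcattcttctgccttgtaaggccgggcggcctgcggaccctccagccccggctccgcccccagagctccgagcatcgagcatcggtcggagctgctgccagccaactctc
The *Dusp5* window held 2 boxes, at -82 and -72, and the *Myl9* window held 1, at -161. A box was present in 4 of 14 contractile windows (28.6%) and in 2 of 24 immediate early windows (8.33%), against 1.48% of all windows. Of the 4 contractile genes with a box, *Myl9* was called and *Cnn2*, *Vcl* and *Srf* were not. The presence of a box in a window says nothing about binding.

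Matrix and fibroblast genes were split, with 10 above (28.6%) and 11 below (31.4%) of 35 and a median of -0.09. Of all genes, 6.37% were above and 6.58% below. *Timp3*, an inhibitor of matrix proteases, had 83.6 and 85.5 CPM in the Veh libraries, 88.1 and 82.6 CPM for RA, 546.4 and 577.6 CPM for NR, and 205.3 and 202.9 CPM for NRRA. RA was not called for it in complete medium, and under restriction RA lowered it, to 0.360 times the product (interaction -1.47). *Pdgfra* and *Pdgfrb*, receptors of platelet-derived growth factor, parted. *Pdgfra* had means of 108.4, 126.6, 232.4 and 138.6 CPM in Veh, RA, NR and NRRA (interaction -0.97). *Pdgfrb* had 266.8, 149.4, 425.4 and 387.7 CPM (interaction 0.70).

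The summed level of 10 fibroblast markers was 18320 to 18530 CPM in Veh, 15030 to 16180 in RA, 29840 to 31130 in NR and 24200 to 24970 in NRRA. Of these markers 2 were above and 2 below the product, against 6.37% and 6.58% of all genes, with a median of -0.01. The sum was higher in the restricted media than in complete medium, and lower with RA than without it in both, and *Fn1* and the collagens made up most of it. Single markers did not all follow it. *Thy1* had means of 282.2 CPM in Veh and 228.1 CPM in NR, *S100a4* had 3.15 and 1.74 CPM, and *Fn1* had 7685 CPM in RA and 6226 CPM in NRRA. The sum of the 2 peritubular markers, *Acta2* and *Myh11*, was 81.6 to 82.5, 56.66 to 56.99, 509.3 to 516.5 and 881.6 to 881.9 CPM in the same order, nearly all of it *Acta2*. The part of feeder or peritubular cells in the contractile and matrix results was not tested.

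Secreted regulators included opposite pairs. *Igfbp5* and *Igfbp4* encode binding proteins of insulin-like growth factors. *Igfbp5* had 334.8 and 325.9 CPM in the Veh libraries, 192.7 and 171.8 CPM for RA, 127.9 and 130.6 CPM for NR, and 227.5 and 242.6 CPM for NRRA. RA lowered it in complete medium and raised it under restriction, with an interaction of 1.72 (SE 0.0705, adjusted p = 3.73e-15, edgeR). *Igfbp4* had 233.9 and 215 CPM in the Veh libraries, 406.9 and 398.2 CPM for RA, 108 and 114.4 CPM for NR, and 71.7 and 72.2 CPM for NRRA. It took the reverse course, with an interaction of -1.47. Of the 10 tested genes of the IGF system 5 were above and 2 below.

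Wnt genes were divided in the same way. Of 27, 7 were above (25.9%) and 4 below (14.8%), against 6.37% and 6.58% of all genes, with 3 past 2-fold on either side. *Wnt9a*, a ligand, had 9.71 and 11.3 CPM in the Veh libraries, 14.3 and 16.3 CPM for RA, 12.6 and 10.3 CPM for NR, and 61.0 and 61.7 CPM for NRRA, 3.68 times the product. It was near the Veh level under restriction alone and highest with both treatments. *Sfrp2*, a secreted Wnt inhibitor, had 35.8 and 36.3 CPM in the Veh libraries, 114.5 and 107.5 CPM for RA, 31.9 and 39.2 CPM for NR, and 24.2 and 25.8 CPM for NRRA, with an interaction of -2.14. RA raised it in complete medium and lowered it under restriction, and 16.1% of its exon bases overlap another gene. *Lgr6*, an R-spondin receptor, went from a mean of 52.2 CPM in RA to 11.02 CPM in NRRA (interaction -1.83). *Lgr5*, a related receptor with a mean under 100 counts, had 11.7 and 12.95 CPM in NR and 0.715 and 1.03 CPM in NRRA, against 0.0495 and 0.365 CPM in Veh and 0.255 and 0.347 CPM in RA. It was the Wnt gene furthest below the product (-4.40, SE 0.726, adjusted p = 0.000101, edgeR), a value that rests on very few reads in Veh.

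BMP pathway genes had 6 of 16 above (37.5%) and 3 below (18.8%), against 6.37% and 6.58% of all genes. Their median was 0.36, and 7 of the 16 had negative values. The Id genes, direct BMP targets, were above, with *Id1* at 0.77, *Id2* at 0.67, *Id3* at 0.98 and *Id4* at 1.39. *Id3* had 33.0 and 35.2 CPM in NR and 58.7 and 59.7 CPM in NRRA, and 49.3 and 43.4 CPM in Veh against 40.8 and 40.7 CPM in RA. *Smad6*, an inhibitor of the pathway, was above at 0.70 and *Bmp7*, a ligand, at 0.95. The 3 below, named after their values were seen, were *Bmp2*, another ligand (-0.84), *Bambi*, a decoy receptor (-0.66), and *Smad7*, an inhibitor (-0.33). The call of *Bambi* was lost in DESeq2 (adjusted p = 0.0648) and without RA replicate 2, NR replicate 2 or NRRA replicate 1 (0.0768 to 0.135, edgeR). Among Notch genes 5 of 17 were above (29.4%) and 1 below (5.88%), with the ligands *Jag1* and *Jag2* at 0.64 and 0.57.

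Smaller shifts with many members were seen in growth functions. Of 36 DNA replication genes, 22 were above the product (61.1%, against 6.37% of all genes) and 2 below (5.56%), with a median of 0.24 and 0 past 2-fold. *Mcm2*, a subunit of the replicative helicase, had 277.6 and 252.4 CPM in the Veh libraries, 235.8 and 230.1 CPM for RA, 211.4 and 210 CPM for NR, and 238.8 and 238.9 CPM for NRRA, with an interaction of 0.37 (SE 0.0637, adjusted p = 0.000184, edgeR). RA lowered it in complete medium and raised it under restriction, and NRRA stayed below Veh. *Rrm2*, which makes deoxynucleotides, had means of 78.0, 71.7, 42.2 and 58.4 CPM in Veh, RA, NR and NRRA (interaction 0.59). The count above was 12 without NR replicate 1 and 14 without NRRA replicate 2.

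Of 31 mitosis genes, 10 were above (32.3%, against 6.37% of all genes) and 0 below (DESeq2, 8 and 0), with a median of 0.18. *Ccna2*, cyclin A, had 105.3 and 112.7 CPM in the Veh libraries, 109.4 and 107.1 CPM for RA, 74.0 and 75.7 CPM for NR, and 99.8 and 106 CPM for NRRA, so that NRRA overlapped Veh (interaction 0.47). Leaving out NR replicate 1 or NR replicate 2 gave 6 genes above.

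Of 25 genes of cholesterol synthesis and uptake, 11 were above (44.0%, against 6.37% of all genes) and 0 below (1 below at an unadjusted p under 0.05), with a median of 0.28. *Acat2*, which joins acetyl-CoA units at the start of the pathway, had 59.5 and 52.8 CPM in the Veh libraries, 55.4 and 56.5 CPM for RA, 38.5 and 35.7 CPM for NR, and 50.1 and 51.4 CPM for NRRA (interaction 0.46). It fell under restriction, and NRRA lay just below Veh. *Nsdhl* (0.47), *Cyp51* (0.39), *Insig1* (0.34) and *Hmgcs1* (0.29) were called as well. The count was 5 without RA replicate 2 and 7 without NR replicate 1 or NR replicate 2. Among 18 fatty acid genes 7 were above (38.9%) and 2 below (11.1%, against 6.58% of all genes). The desaturases *Fads1* (0.84) and *Fads2* (0.71) led them, and *Fads1* was highest in NRRA, at 159.5 and 158.5 CPM.

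The lysosome list had 11 of 37 genes above (29.7%, against 6.37% of all genes) and 0 below (DESeq2, 7 and 0), with a median of 0.12. Its values were small, with *Ctsl*, a cathepsin, at 0.33 and *Ctsk*, another, at 0.44. Autophagy genes had 5 of 30 above (16.7%) and 0 below, with *Tfeb*, a regulator of lysosome genes, at 0.86 and *Sqstm1*, a cargo receptor, at 0.35.

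Some functions had few or no called genes, where 6.37% of all genes were above and 6.58% below. In the lists of 13 and 20 genes those shares amount to few calls, so 0 is near them. The 40 nuclear genes of the respiratory chain and ATP synthase, the 13 protein genes of the mitochondrial genome and the 20 tRNA synthetases had 0 called genes by edgeR, with medians of 0.08, 0.00 and 0.08 (at an unadjusted p under 0.05, 7, 0 and 5 genes, and 0 called by DESeq2 in each list). Of 79 ribosomal protein genes 1 was called, *Rpl28* (0.17), a call that DESeq2 did not make, with a median of 0.08. With offsets for GC content and gene length, 23 ribosomal and 8 respiratory chain genes were called above, and without Veh replicate 2, 9 ribosomal genes.

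**Figure D4:**
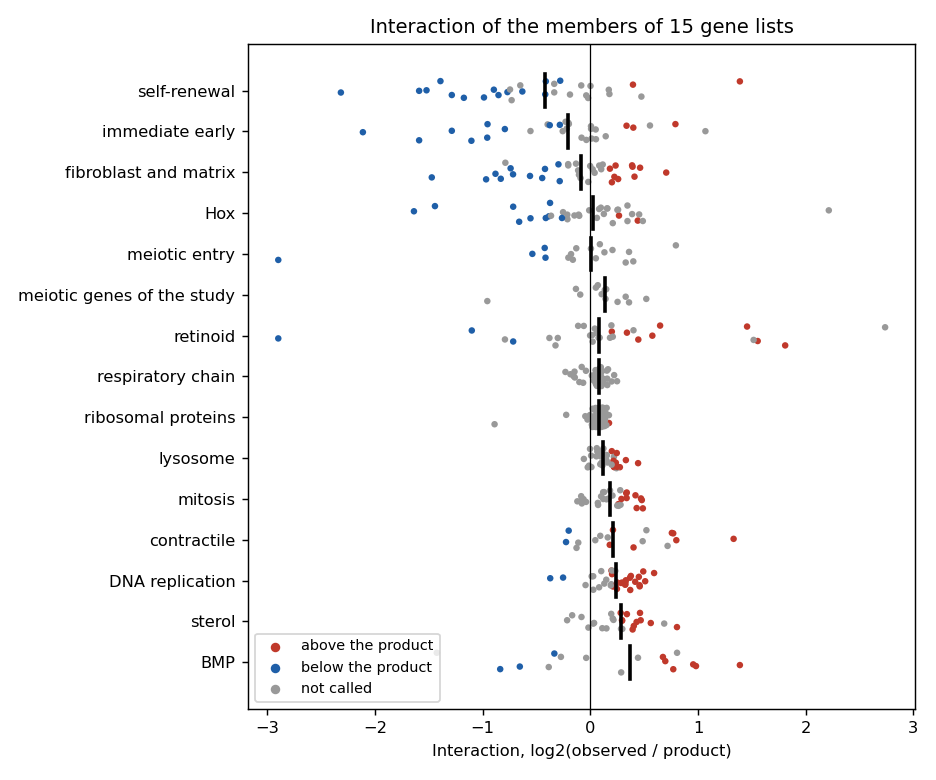
Interaction of the tested members of 15 gene lists on the log2 scale, 1 point per gene, coloured by the call at an adjusted p under 0.05, with the median of each list as a black bar. The medians run from -0.42 for self-renewal genes to 0.36 for BMP genes, and ribosomal and respiratory chain genes cluster near 0, apart from *Rpl24* at -0.89.

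For the lists that follow, the shares of all genes were 6.37% above and 6.58% below. Of 31 amino acid response genes, 5 were above (16.1%) and 4 below (12.9%), with a median of 0.04 and with *Phgdh*, an enzyme of serine synthesis, at -0.50. The interferon list had 6 of 38 above (15.8%) and 2 below (5.26%), led by *Ifitm1* (1.23). Class I antigen presentation had 5 of 17 above (29.4%) and 1 below (5.88%). Among antioxidant genes 8 of 26 were above (30.8%) and 1 below (3.85%), with *Hmox1* at 0.47. Chemokines and cytokines had 3 of 25 above and 6 below, with *Csf1* at 0.78 and *Il6* at -1.09. Hox genes had 2 of 34 above (5.88%) and 9 below (26.5%). *Hoxb6* (-0.56), *Hoxb8* (-0.66), *Hoxc11* (-1.64) and *Hoxc12* (-1.44) were below. Imprinted genes were divided evenly, with 5 of 26 above and 5 below (19.2% each). *Peg3* (0.72) and *Grb10* (0.67) were above, with 458.3 and 460.4 CPM of *Peg3* in NRRA against 141.1 and 142.1 CPM in NR.

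Some of the better-covered genes stood far from the product. *Prss35*, a serine protease homologue, had 13.3 and 13.6 CPM in the Veh libraries, 8.87 and 9.40 CPM for RA, 5.88 and 7.21 CPM for NR, and 50.1 and 50.4 CPM for NRRA. Each treatment alone lowered it, and the combination was 11.2 times the product (interaction 3.48, SE 0.137, adjusted p = 2.32e-15, edgeR). *Itga8*, an integrin subunit (2.10), and *Adra2a*, an adrenergic receptor (1.90), were also lowered by RA in complete medium and raised under restriction, as was *Tril* (2.41), with 21.4% of its exon bases overlapping another gene. *Csn3*, a casein gene, had 0 counts in both NR libraries, so that its product is 0 and no ratio is given. Its call was lost in DESeq2 (adjusted p = 0.0785), with library totals alone and when any library other than Veh replicate 1 was left out. It had 10.7 and 12.3 CPM in RA and 4.79 and 5.27 CPM in NRRA.

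On the other side, *Agtr2*, an angiotensin receptor, had 10.4 and 11.5 CPM in the Veh libraries, 38.9 and 35.7 CPM for RA, 47.8 and 48.3 CPM for NR, and 16.3 and 16.9 CPM for NRRA. Both treatments alone raised it, and together they left it lower than either did, at 0.102 times the product (interaction -3.30, SE 0.109, adjusted p = 5.88e-17, edgeR). *Chl1*, a cell adhesion molecule, had 32.0 and 33.2 CPM in NR and 1.68 and 1.99 CPM in NRRA, with 4.21 and 4.64 CPM in Veh and 3.42 and 2.12 CPM in RA (interaction -3.41). Restriction raised it, and with RA added it was below Veh. *Dio3*, which inactivates thyroid hormone, rose with each treatment and with both, from 0.347 and 0.208 CPM in Veh to 31.2 and 32.4 CPM in NRRA, and was below the product at -2.54.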

How the data were processed

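Poly(A) RNA of mouse spermatogonial cultures was sequenced in 8 libraries, 2 in each of 4 conditions taken from the sample labels. Per the submitters' processing notes, the authors demultiplexed with bcl2fastq, mapped reads to mm10 with STAR 2.6.1c and counted them with featureCounts 1.6.4, and they deposited whole-number counts per gene without normalization. The strand setting of the counting is not given in the sources used here, so genes that overlap another gene are uncertain. Coordinates and exon overlaps came from GENCODE M21 (GRCm38), which held 55240 of the 55421 identifiers.

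Counts were filtered with filterByExpr by condition and scaled by TMM, and 1 quasi-likelihood model was fitted to all 8 libraries in edgeR 4.0.16 (R 4.3.3). The interaction, (NRRA minus NR) minus (RA minus Veh) in log2, was tested in 20477 genes with Benjamini-Hochberg adjustment, as were RA vs Veh, NRRA vs NR and NR vs Veh. A gene was called at an adjusted p under 0.05, with or without a fold of at least 2. CPM used TMM-scaled totals, and products and sums used condition means. The SE is the absolute log2 value divided by the square root of F. Library totals ran from 19261333 to 30023585 counts, so genes near 1 CPM rest on few reads.

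Genes were named by rule: the 12 furthest from the product on each side with a mean of at least 100 counts, up to 4 per class of RA response, up to 6 per list with the smallest p, and the meiotic and transcription factor genes of the study. Not all of them are printed. The gene lists, markers and members were chosen with earlier results of these data known. Alternatives were DESeq2 1.42.0, other scalings, filters and fold limits, a replicate block, GC and length offsets (mgcv), the sum on the CPM scale and leaving out each library. The libraries of a condition differed beyond sampling noise, with chi-square values per gene of 1.58 to 3.93.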

Additional observations from a re-analysis of the deposited data

Results flagged for a closer look

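The results listed here are those in which the effect of RA differed between complete and restricted medium, as tested by the interaction itself with edgeR's quasi-likelihood test. At 2-fold these were 161 genes above and 298 below the product, of 20477. In 29 of the former RA lowered the level in complete medium and raised it under restriction, and in 40 of the latter RA did the reverse, so that the direction of the effect turned. With a mean of at least 100 counts, the 4 strongest of the first kind were *Prss35* (3.48), *Tril* (2.41), *Itga8* (2.10) and *Adra2a* (1.90), and those of the second were *Agtr2* (-3.30), *Gm26771* (-2.49), *Sfrp2* (-2.14) and *Avpr1a* (-2.11). *Gm26771* overlaps *Sfrp2* in 32.1% of its exon bases, so the reads of these 2 genes may be shared. *Avpr1a*, a vasopressin receptor, had means of 3.09, 6.60, 21.7 and 10.8 CPM in Veh, RA, NR and NRRA. With 2 libraries per condition no single library could be tested as an outlier.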

How the results depend on the processing

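Numbers of genes above and below the product at 2-fold were 101 and 180 in DESeq2, which gave no adjusted p for 5161 genes, 102 above with a minimum mean of 50 counts, and 416 and 612 at a limit of 1.5-fold. Leaving out 1 library gave 117 to 169 above and 223 to 371 below. Without a fold minimum 789 genes were above in DESeq2 and 2113 with GC content and length offsets, and leaving out 1 library gave 647 (without NR replicate 1) to 1569 above and 850 (without RA replicate 2) to 2207 (without Veh replicate 2) below. For the lists, DESeq2 called 4 retinoid and 7 sterol genes above. A minimum mean of 50 counts left 5 retinoid genes, no low-count filter gave 3 ribosomal genes, and the GC and length offsets gave 8 respiratory chain, 23 ribosomal and 17 mitosis genes. Leaving out 1 library moved the counts above to 3 to 7 for retinoid, 5 to 11 for sterol, 0 to 3 for respiratory chain (also 0 to 3 below), 0 to 9 for ribosomal, 4 to 7 for contractile, 12 to 22 for replication and 6 to 12 for mitosis genes. The cause of these changes was not tested. Self-renewal genes below the product stayed between 13 and 17, and immediate early genes between 8 and 11, in every alternative fit. List members were not counted against the sum on the CPM scale.

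Of the 104 genes followed through these settings, 91 kept their sign and their side of the threshold. *Aldh1a2*, *Bambi*, *Bcl11a*, *Csn3*, *Rec8*, *Rpl28*, *Sox3*, *Spo11*, *Star*, *Sycp2* and *Ythdc2* changed their call in at least 1, and the uncalled *Cyp26a1* and *Rarb* changed sign, *Cyp26a1* between -0.0538 and 0.4439 and *Rarb* between -0.2895 and 0.0444 when 1 library was left out. On the additive CPM scale, which has no test, 13 genes stood on the other side. NRRA exceeded the sum by 282 CPM for *Stra8*, 133.4 for *Kit*, 70.83 for *Dusp6*, 33.9 for *Spry4*, 23.59 for *Ret*, 10.52 for *Dio3*, 7.167 for *Sall3*, 4.028 for *Hoxc12* and 3.85 for *Hoxc11*. The sums of *Dusp6*, *Spry4*, *Sall3*, *Hoxc12* and *Hoxc11* were negative, so any level would have exceeded them. The difference from the sum was -9.1 CPM for *Cyp26b1*, -6.82 for *Jag1*, -6.203 for *Csn3* and -0.703 for *Ifitm1*.

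With the replicate number as a block, 155 genes were above and 296 below at 2-fold, and *Rpl28* alone of the 104 genes lost its call. Over all tested genes, libraries with the same number did not deviate together, with correlations between -0.033 and 0.023. The labels number the replicates without stating a pairing, and these correlations cannot exclude one that touches few genes. Genes near 1 CPM have wide errors at this depth.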
